A study of Mus musculus with 12 samples.

Results

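The enzymes of serine synthesis, the folate one-carbon cycle and asparagine synthesis were followed through RNA sequencing counts from mouse small intestine. The 10 genes were chosen by symbol: Phgdh, Psat1 and Psph for serine, Shmt1, Shmt2, Mthfd1, Mthfd1l, Mthfd2 and Aldh1l2 for one-carbon units, and Asns for asparagine. All 10 were among the 55421 gene identifiers of the table, and all 10 were among the 17394 that passed the filter on low counts. The study compared 12 libraries, 4 in each of 3 groups. The WT group was labelled wild type at day 7, with no Cre or floxed allele named. The Apc group was VilCreER Apcfl/fl at day 4, in which a tamoxifen-inducible Cre driven by the villin promoter acts in gut epithelium and leaves other cells of the wall untouched. The Apc Eif3h group was VilCreER Apc fl/fl Eif3h fl/fl, also at day 4. The protocol text, shared by all samples, gives 2 intraperitoneal tamoxifen injections of 80 mg/kg, 24 hours apart, and harvest after 7 days, which does not match the day 4 labels. Genotype and labelled day cannot be told apart in comparisons with WT, while Apc Eif3h and Apc share their labelled day. Labelled sex was male for 3 of 4 libraries in WT, 3 of 4 in Apc and 4 of 4 in Apc Eif3h, and ages were not given in the sources used here. Whether each replicate is its own mouse was not stated, and the p-values cover the variation among these libraries, part of which may be technical.

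Serine is made from the glycolytic intermediate 3-phosphoglycerate by Phgdh (oxidation), Psat1 (transamination) and Psph (removal of the phosphate). The hydroxymethyltransferases Shmt1 in the cytosol and Shmt2 in mitochondria then split serine into glycine and a one-carbon unit carried on tetrahydrofolate. In mitochondria that unit is oxidised by Mthfd2, released as formate by Mthfd1l or burnt to carbon dioxide by Aldh1l2, and in the cytosol Mthfd1 takes formate up again for purine and thymidylate synthesis. Asns makes asparagine from aspartate and glutamine. Asns, Phgdh, Psat1, Shmt2 and Mthfd2 are textbook targets of Atf4, the transcription factor of amino acid shortage and the integrated stress response, and several of these enzymes are known to be raised in dividing cells and by Myc.

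Promoter sequence is shown for Asns and Mthfd2, because Asns alone of the set held a searched motif and Mthfd2 had the smallest adjusted p in Apc Eif3h against Apc. Each sequence is the 250 bases before the RefSeq start on GRCm38.p6, read 5′ to 3′ on the minus strand, from chr6:7693210-7693459 for Asns and chr6:83317605-83317854 for Mthfd2. Capitals mark a match to TGATGNAAN, the C/EBP-ATF response element bound by Atf4.
Asns: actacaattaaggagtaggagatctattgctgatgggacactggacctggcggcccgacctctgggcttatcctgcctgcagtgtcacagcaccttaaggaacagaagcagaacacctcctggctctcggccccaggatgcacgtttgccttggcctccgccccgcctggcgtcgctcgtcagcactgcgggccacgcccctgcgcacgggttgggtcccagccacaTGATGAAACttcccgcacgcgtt
Mthfd2: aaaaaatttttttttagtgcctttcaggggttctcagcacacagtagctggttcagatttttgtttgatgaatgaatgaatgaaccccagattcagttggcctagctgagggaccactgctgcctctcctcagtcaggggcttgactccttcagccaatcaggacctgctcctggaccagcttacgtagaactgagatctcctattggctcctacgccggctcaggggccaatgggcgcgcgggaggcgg
The match TGATGAAAC in Asns lay 23 to 15 bases before the RefSeq start. Genes of the GENCODE M21 annotation reach further upstream, to chr6:7693254 for Asns and chr6:83325908 for Mthfd2. The Asns match and the Mthfd2 window lie inside these genes, so the search depends on the start chosen. Windows were found for 9 of the 10 genes (Psat1 had 2), and Asns was the 1 gene with TGATGNAAN on either strand. That motif was in 3.38% of 32544 distinct promoter windows of the same length. Neither the E-box CACGTG (6.03% of windows) nor the TCF/LEF motif CTTTGAT (either strand, 3.21%) was in any of these windows, which says only that the letters are not there. No window held a pair of these motifs, so none overlapped.

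Library totals ran from 10483112 to 21298301 counts. Eif3h transcript ranged from 126 to 142 CPM (counts scaled by library total and TMM factor) over the WT libraries, 158 to 175 over Apc and 25.9 to 54.6 over Apc Eif3h. The log2 fold change of Apc Eif3h against Apc was -2.13 (SE 0.19, edgeR adjusted p = 0.000405). Whole-gene Apc counts, at 87.4 to 98.3, 106 to 123 and 92.8 to 121 CPM, need not show loss of a floxed exon. The tissue label fitted its markers: the 10 pan-epithelial genes summed to 7460 to 12800 CPM and the 12 enterocyte genes to 15715 to 53280, with none at 0 in any group. The 7 pancreatic acinar genes summed to 0.272 to 1.16 CPM. Apc Eif3h replicate 2 stood apart in immune markers: its 8 B cell genes summed to 1598 CPM against 309.6 to 449 in the other 3 Apc Eif3h libraries, its 8 myeloid genes to 443 against 139.6 to 148 and its 8 T cell genes to 80.4 against 28.3 to 36.7. WT replicate 1 held 2759 CPM of the B cell genes against 816.5 to 922 in the other 3 WT libraries.

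In small intestine from Apc mice, 8 of the 10 enzymes rose over WT and none fell. The largest of the 8 changes were in serine synthesis, with Phgdh at 7.67-fold and Psat1 at 5.86-fold, and the smallest were in the cytosolic one-carbon enzymes Mthfd1 (2.31-fold) and Shmt1 (2.34-fold). Psph and Aldh1l2 did not pass the test. The background is broad: 27.7% of all genes tested were called higher in Apc (edgeR quasi-likelihood test, Benjamini-Hochberg adjusted p below 0.05 over 17394 genes) and 24.1% lower. The members' median log2 fold change was 1.58, beside -0.01 over all genes.

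Phgdh, the entry enzyme of serine synthesis, was at 5.42, 3.85, 3.16 and 3.13 CPM in WT replicates 1 to 4. In Apc it was at 40.4, 22.9, 24.97 and 31.9 CPM, so that the lowest Apc library lay above the highest WT library by more than the whole WT range. The log2 fold change was 2.94 (SE 0.26, edgeR adjusted p = 1.02e-05), the 69th highest of the genes tested. Psat1, the aminotransferase, was at 11.5, 9.12, 6.90 and 8.32 CPM in WT and at 74.1, 36.6, 42.2 and 57.8 in Apc. These groups were also separate, with a log2 fold change of 2.55 (SE 0.33, edgeR adjusted p = 7.05e-05). Psph, the phosphatase that completes the pathway, was at 9.69, 7.05, 7.49 and 9.72 CPM in WT and 15.7, 9.51, 9.85 and 15.2 in Apc, where Apc replicate 2 lay below the highest WT library. Its log2 fold change of 0.56 (SE 0.25, edgeR adjusted p = 0.0751) passed with library totals as the only scaling (0.0238), in a fit of the 2 groups alone (0.0355), with a replicate block (0.0273) and without Apc replicate 2 (0.0473).

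Shmt2, the mitochondrial hydroxymethyltransferase, was at 31.2, 26.4, 24.1 and 22.6 CPM in WT and 127.5, 79.8, 77.7 and 103.6 in Apc. It rose 3.72-fold (log2 1.90, SE 0.23, edgeR adjusted p = 4.91e-05), and every Apc library lay above every WT library. Shmt1, its cytosolic counterpart, was at 45.5, 47.9, 34.9 and 31.1 CPM in WT and 103.6, 82.0, 92.1 and 94.9 in Apc (log2 1.22, SE 0.16, edgeR adjusted p = 8.67e-05). Its groups were separate too, with a smaller step than Shmt2. Mthfd2, the mitochondrial dehydrogenase and cyclohydrolase, was at 15.8, 15.2, 12.6 and 14.4 CPM in WT and 53.1, 35.2, 36.3 and 52.2 in Apc (log2 1.604, SE 0.20, edgeR adjusted p = 5.51e-05). Mthfd1l, the mitochondrial formate-producing synthetase, had values of 5.04, 6.55, 6.57 and 5.93 CPM in WT and 36.9, 24.1, 24.97 and 30.2 in Apc (log2 2.26, SE 0.23, edgeR adjusted p = 2.17e-05). For both enzymes the WT libraries lay close together and no Apc library came near them. Mthfd1, the cytosolic enzyme that carries synthetase, cyclohydrolase and dehydrogenase activities in 1 protein, was at 49.8, 48.6, 41.9 and 38.9 CPM in WT and 121.6, 89.2, 96.5 and 107.7 in Apc (log2 1.21, SE 0.12, edgeR adjusted p = 1.78e-05).

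Asns rose 2.94-fold, from 20.5, 21.5, 20.5 and 26.4 CPM in WT to 84.8, 49.8, 56.4 and 70.9 in Apc (log2 1.56, SE 0.21, edgeR adjusted p = 8.7e-05). Its groups did not overlap. Aldh1l2 was scarce, with 10 to 31 counts in each of the 12 libraries and 0.807 to 1.69 CPM. Its log2 fold change of 0.12 (SE 0.28, edgeR adjusted p = 0.734) did not pass, which does not show that its level was the same. The exons of Aldh1l2 share 1056 of 7503 bases with D10Wsu102e on the opposite strand, and those of Psph share 452 of 4329 with Cct6a. Smaller overlaps with opposite-strand exons were 184 bases in Shmt1 (Smcr8), 37 in Mthfd1 (Gm47525) and 32 in Shmt2 (Ndufa4l2). Since the strand setting of the counting was not given, reads in these bases cannot be assigned with certainty. The processed pseudogene Phgdh-ps1 on chromosome 7 held 0 to 3 counts in each library. In all, 8 members had Apc wholly above WT, as did 26.7% of all genes tested, and none had Apc wholly below WT, as did 22% of all genes.

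**Figure D1:**
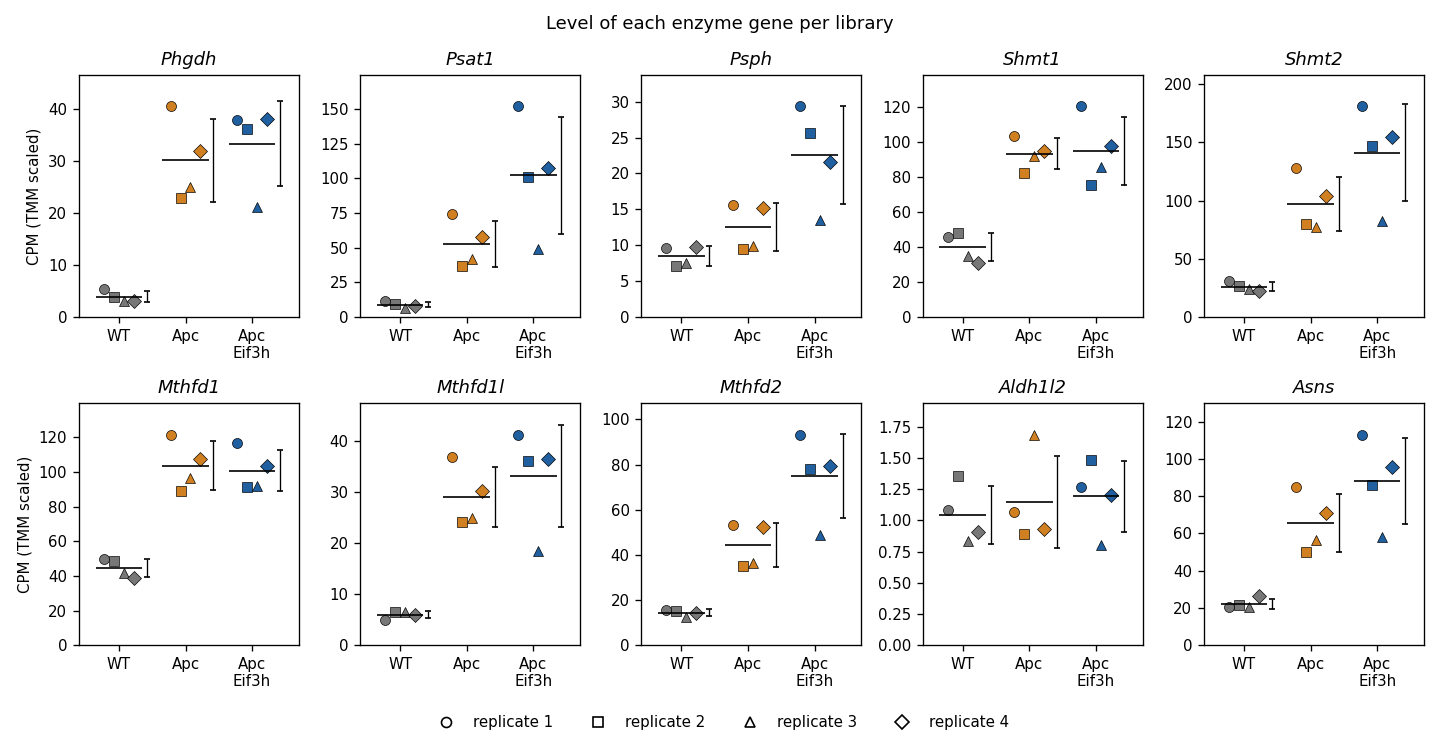
CPM after TMM scaling (vertical axis, from 0) of each of the 10 enzyme genes in the 12 libraries, by group. Points are libraries, marker shapes give the replicate number, horizontal lines are group means and bars are SD (n = 4). For 8 genes every Apc library lies above every WT library, and in Apc Eif3h the triangle of replicate 3 is the lowest point for 8 genes.

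Markers of other cell states moved with the same contrast, in which 27.7% of all genes tested were called higher and 24.1% lower. All 14 cell cycle genes on a fixed list rose from WT to Apc, with a summed level of 512.7 to 728.7 CPM in WT and 1341 to 1746 in Apc. All 8 crypt stem cell markers rose (570.2 to 992.2 against 2634 to 3202 CPM), and 10 of 12 enterocyte markers fell (39957 to 53280 against 15715 to 26214 CPM). T cell markers fell in 6 of 7 tested members (4 to 6 with a library left out). Stromal, muscle and endothelial markers fell in 4 of 10 (2 without Apc replicate 3). Of 8 Paneth and goblet markers, 5 goblet genes fell (Muc2, Tff3, Clca1, Fcgbp and Zg16) and the Paneth gene Mmp7 rose. Among 8 neuronal and glial markers 4 fell (2 when any 1 of WT replicates 2 or 3 or Apc replicate 3 was left out), and myeloid markers fell in 3 of 7 (5 without WT replicate 3). Of 6 tested B cell markers 1 fell, and it was not called without WT replicate 1 or any 1 of Apc replicates 1, 2 or 4. Pan-epithelial markers fell in 3 of 10 and rose in 1. None of the genes on these lists was at 0 throughout a group. The part of cell composition in the enzyme changes was not tested, and in bulk tissue fewer cells of a type and less RNA per cell cannot be told apart.

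With Eif3h floxed in addition to Apc, Psph rose 1.80-fold and Mthfd2 1.695-fold over Apc, no member fell, and 8 members did not pass the test. Over all genes tested, 4.27% were called higher and 2.78% lower in this contrast. No member had groups that were separate, where 7.89% of all genes had Apc Eif3h wholly above Apc and 7.26% wholly below. The median log2 fold change of the members was 0.31 and that of all genes -0.00185. Neither call passed with library totals as the only scaling, in a fit of the 2 groups alone or in the labelled males, and without a given library the number of members called higher ran from 0 to 5. Crypt stem cell markers moved in part with this contrast. The 8 genes summed to 2634 to 3202 CPM in the Apc libraries and 1959 to 2414 in the Apc Eif3h libraries, which did not overlap. Much of that sum was Olfm4, which was not called, with means of 1834 CPM in Apc and 1203 in Apc Eif3h. The median log2 fold change of the 8 genes was -0.249, and the means of Axin2 and Ascl2 were higher in Apc Eif3h. Of these 8, Lgr5 (log2 -1.19, SE 0.22, edgeR adjusted p = 0.00974) and Smoc2 (log2 -0.63, SE 0.08, edgeR adjusted p = 0.00172) fell, and 2 were called lower whichever library was left out. No tested gene of the other marker lists was called in this contrast, among them 14 cell cycle and 12 enterocyte genes. The Paneth gene Mmp7 still ranged over 196 to 307 CPM in Apc and 35.2 to 183.5 in Apc Eif3h, without overlap. Means of the goblet genes Muc2, Tff3, Clca1 and Fcgbp were higher in Apc Eif3h. With a library left out, up to 2 Paneth and goblet genes were called lower and up to 2 B cell genes higher. The part of cell composition in the enzyme values was not tested.

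Mthfd2 was at 93.3, 78.0, 48.9 and 79.2 CPM in Apc Eif3h replicates 1 to 4, so that 3 of the 4 lay above all Apc libraries and replicate 3 lay among them. The log2 difference from Apc was 0.76 (SE 0.19, edgeR adjusted p = 0.031). Psph was at 29.3, 25.7, 13.5 and 21.7 CPM, again with 3 libraries above all of Apc (log2 0.85, SE 0.24, edgeR adjusted p = 0.0493). Psat1 had the highest estimate of the set and did not pass: it was at 152, 101, 48.9 and 107 CPM (log2 0.96, SE 0.30, edgeR adjusted p = 0.0721). It passed in DESeq2 (0.0182) and with a replicate block (0.0213). Shmt2, at 181, 147, 82.5 and 154 CPM, gave 0.54 (SE 0.22, edgeR adjusted p = 0.158). Asns, at 113, 86.1, 57.95 and 95.9 CPM, gave 0.43 (SE 0.20, edgeR adjusted p = 0.207). In each of these 5 genes Apc Eif3h replicates 1, 2 and 4 lay above every Apc library, while replicate 3 fell within the Apc range.

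The other members gave estimates near 0 in the same contrast. Phgdh was at 37.8, 36.01, 21.2 and 38.1 CPM in Apc Eif3h (log2 0.15, SE 0.22, edgeR adjusted p = 0.728), with no library above the highest of Apc. Mthfd1l was at 41.2, 36.01, 18.5 and 36.4 CPM (log2 0.19, SE 0.21). Among the cytosolic enzymes, Shmt1 was at 120.2, 75.6, 85.6 and 97.7 CPM (log2 0.03, SE 0.16) and Mthfd1 at 116.8, 91.3, 91.8 and 103.5 CPM (log2 -0.04, SE 0.12). Aldh1l2 was at 1.27, 1.49, 0.807 and 1.21 CPM (log2 0.06, SE 0.26). None of these 5 passed the test, which does not show that their levels are equal.

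Apc Eif3h replicate 3 was the lowest library of its group for 8 of the 10 genes and replicate 1 the highest for 8. The median deviation of the members from their group mean was -0.59 on the log2 scale in replicate 3 and 0.37 in replicate 1. Replicate 3 also had the most Eif3h transcript of its group, 54.6 CPM against 28.3, 43.1 and 25.9 in replicates 1, 2 and 4. Its cell cycle markers summed to 1198 CPM against 1342 to 1754 in the others, and its enterocyte markers to 33835 against 20009 to 22793. Without that library, 5 members were called higher: Psat1 (log2 1.22, edgeR adjusted p = 0.00823), Psph (1.05, 0.00781), Shmt2 (0.75, 0.0169), Mthfd2 (0.94, 0.00383) and Asns (0.61, 0.0443). In that fit 6.51% of all genes tested were called higher. Without any 1 of Apc Eif3h replicates 1, 2 or 4, or of Apc replicates 2 or 3, the count was 0, and without Apc replicate 1 or 4 it was 1. The part of remaining Eif3h or of cell composition in these values was not tested.

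**Figure D2:**
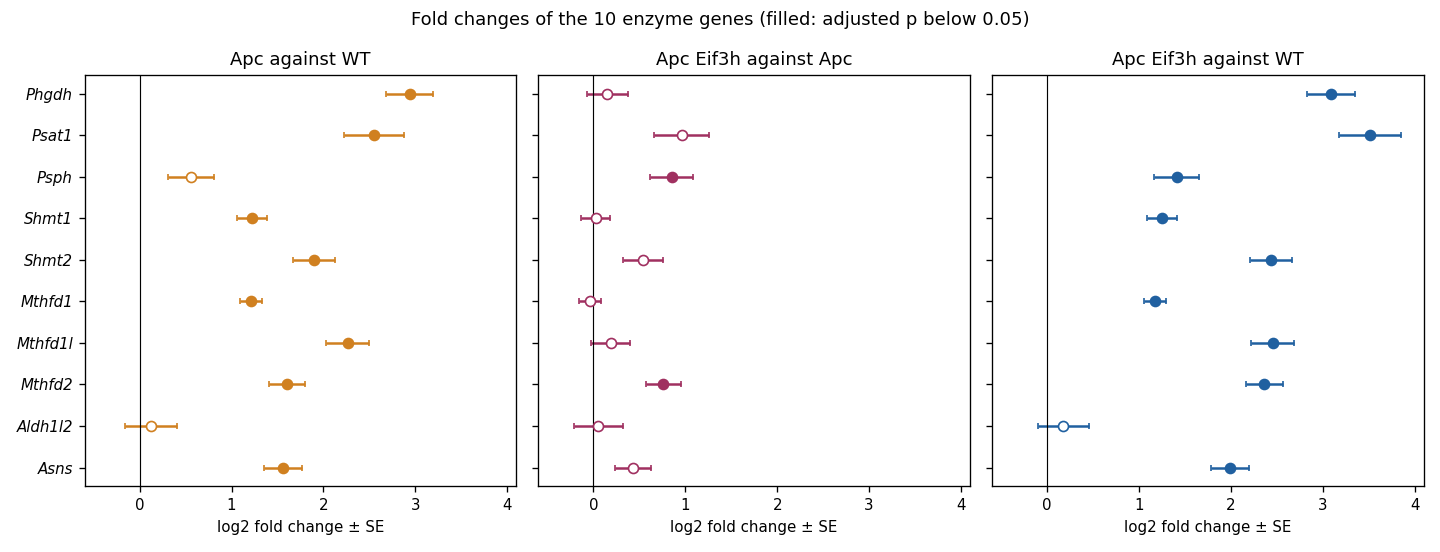
Log2 fold change (horizontal axis) of each enzyme gene in the 3 contrasts, with bars of 1 SE. Filled points passed at an adjusted p below 0.05: 8 genes in Apc against WT, 2 in Apc Eif3h against Apc and 9 in Apc Eif3h against WT. The first and the third contrast share the WT libraries, and the first and the second share the Apc libraries.

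Against WT, 9 of 10 members were higher in Apc Eif3h and none lower, where 29.8% of all genes tested were called higher and 28.1% lower. The members' median was 2.18 on the log2 scale, beside -0.03 over all genes. Psat1 gave 3.51 (SE 0.33, edgeR adjusted p = 7.01e-06), 11.4-fold and the 40th highest change of the genes tested, and Phgdh 3.09 (SE 0.26, edgeR adjusted p = 4.47e-06). Psph, which had not passed in Apc against WT, gave 1.41 (SE 0.25, edgeR adjusted p = 0.000417) with all 4 libraries above WT. Among the one-carbon enzymes the mitochondrial genes were at 2.45 (Mthfd1l), 2.44 (Shmt2) and 2.37 (Mthfd2), and the cytosolic genes at 1.25 (Shmt1) and 1.17 (Mthfd1). Asns gave 1.99 (SE 0.21, edgeR adjusted p = 1.1e-05). Aldh1l2 was the 1 that did not pass (0.18, SE 0.28, edgeR adjusted p = 0.61). The 9 called members had Apc Eif3h wholly above WT, as did 26.9% of all genes tested, and none lay wholly below, as did 20.7%.

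Levels were set against each other per length of annotated exon (CPM per kb, mean ± SD, n = 4). In WT the cytosolic enzymes stood first, Shmt1 at 10.3 ± 2.09 and Mthfd1 at 10.1 ± 1.19, followed by Shmt2 at 8.38 ± 1.20 and Asns at 8.12 ± 1.03. Shmt1 and Mthfd1 differed by less than their spread, as did Shmt2 and Asns. Mthfd1 lay above Shmt2 by more than the SD of either. Mthfd2 was at 4.16 ± 0.392, then Psat1 at 2.104 ± 0.449, Psph at 1.96 ± 0.327, Phgdh at 1.57 ± 0.432 and Mthfd1l at 1.36 ± 0.163, of which the last 4 again lay within their spread from one neighbour to the next. Aldh1l2 was at 0.139 ± 0.0309. In Apc, Shmt2 had the highest mean at 31.3 ± 7.54, with Shmt1 at 24.0 ± 2.29 and Asns at 23.9 ± 5.70 within its SD. Mthfd1, at 23.4 ± 3.18, lay just beyond that SD and within the spread of Shmt1 and Asns. Psat1 and Phgdh had moved next to Mthfd2: Mthfd2 was at 12.7 ± 2.80, Psat1 at 12.4 ± 3.96 and Phgdh at 12.1 ± 3.18. In Apc Eif3h the order of the means began with Shmt2 at 45.4 ± 13.4 and Asns at 32.3 ± 8.43, and Psat1, at 24.1 ± 9.93, stood level with Shmt1 at 24.4 ± 4.95.

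The balance between mitochondrial and cytosolic isozymes was read from the ratio of 2 genes' counts within a library, which no scaling can alter. Shmt2 was below Shmt1 in every WT library, with ratios of counts of 0.685, 0.552, 0.693 and 0.725. In Apc the ratios were 1.23, 0.973, 0.844 and 1.09, and in Apc Eif3h 1.504, 1.95, 0.964 and 1.58. On the log2 scale Apc lay 0.63 above WT and Apc Eif3h 1.14 above WT (exact two-sided permutation p = 0.0286 for each, the smallest that 4 against 4 can give; 0.0429 adjusted over the 12 ratio tests). Apc Eif3h against Apc overlapped (0.50, exact p = 0.114, adjusted 0.124). The WT libraries had Mthfd1l to Mthfd1 ratios of 0.102 to 0.158 and the Apc libraries 0.259 to 0.304, again separate (log2 difference 1.04, exact p = 0.0286, adjusted 0.0429). The Apc Eif3h libraries spread over 0.202 to 0.395.

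Mthfd2 was compared with Mthfd2l, its mitochondrial paralogue, which carries out the same reactions. WT libraries had ratios of counts of 2.05 to 3.22, Apc libraries 4.19 to 6.19 and Apc Eif3h libraries 6.54 to 13.2, so that the 3 groups followed each other without overlap. The log2 difference was 0.75 from WT to Apc and 1.06 from Apc to Apc Eif3h (exact two-sided permutation p = 0.0286 and adjusted 0.0429 for each). Mthfd2l itself rose from WT to Apc (log2 0.83, SE 0.14, edgeR adjusted p = 0.000501). From Apc to Apc Eif3h the denominator moved as well. Mthfd2l ranged over 7.996 to 10.95 CPM in Apc and 7.019 to 7.446 in Apc Eif3h, without overlap, though it was not called. Mthfd2 by its own CPM overlapped between Apc and Apc Eif3h, so the separation of the ratio there is not a change of Mthfd2 alone. Aldh1l2 stayed far below its cytosolic counterpart Aldh1l1, with ratios of counts of 0.00508 to 0.00833 over WT libraries, 0.00824 to 0.0131 over Apc and 0.0104 to 0.0338 over Apc Eif3h. It was separate only between Apc Eif3h and WT (log2 difference 1.84, exact p = 0.0286, adjusted 0.0429), and there the denominator moved. Mean CPM of Aldh1l1 over the WT, Apc and Apc Eif3h libraries was 167 ± 13.3, 114 ± 24.1 and 54.4 ± 18.5. It fell by 0.56 from WT to Apc (SE 0.20, edgeR adjusted p = 0.0363) and by 1.06 from Apc to Apc Eif3h (SE 0.21, edgeR adjusted p = 0.0115).

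**Figure D3:**
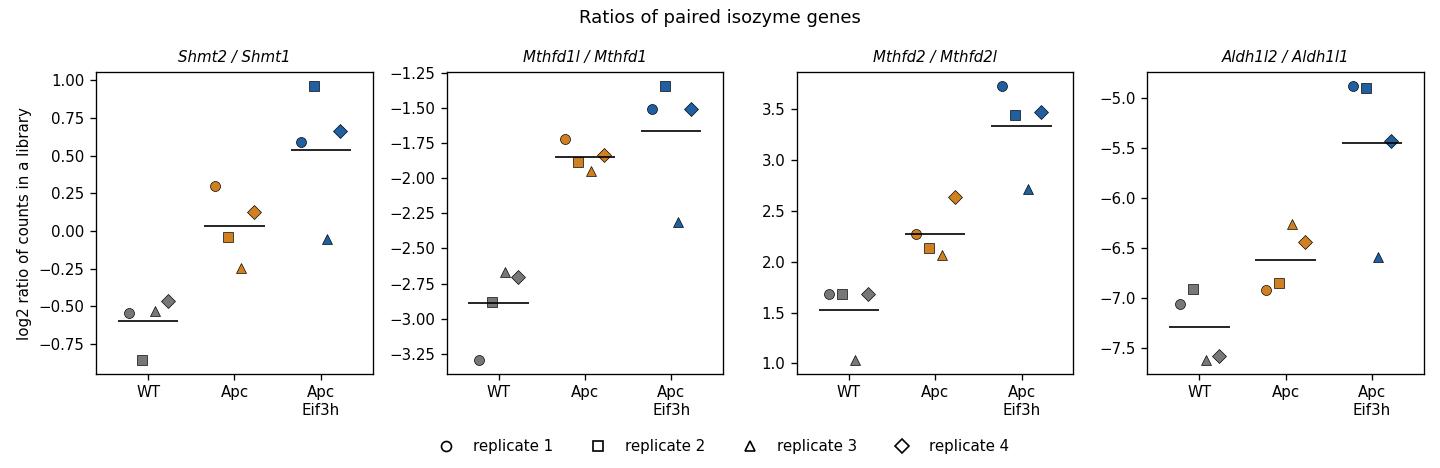
Log2 ratio of the counts of paired isozyme genes (vertical axes, each with its own range) in each of the 12 libraries, with marker shapes for the replicate number and lines for group means. Shmt2 to Shmt1, Mthfd1l to Mthfd1 and Mthfd2 to Mthfd2l separate WT from Apc, and Mthfd2 to Mthfd2l also separates Apc from Apc Eif3h.

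The members varied together between libraries of a group. With group means removed, Pearson's r of log2 CPM over the 12 libraries was above 0 for all 45 pairs, with a median of 0.75 and a range of 0.19 to 0.97. The pairs share libraries, depth and scaling, so these values are a description. The highest were Psat1 with Shmt2 (0.97), Psat1 with Mthfd2 (0.97) and Shmt2 with Mthfd2 (0.95), and the cytosolic pair Shmt1 and Mthfd1 was at 0.91. The lowest were Psph with Aldh1l2 (0.19) and Aldh1l2 with Asns (0.24). In Apc, replicate 1, a female and the shallowest library, was the highest for 9 of the 10 genes and replicate 2 the lowest for 9. Over the same libraries with group means kept, the 5 genes closest to the members' mean pattern were Heatr1, Ddx21, Pusl1, Trmt10c and Wdr74 (r of 0.9944 to 0.9953). Heatr1 was at 19.6 ± 2.56, 56.2 ± 8.41 and 71.7 ± 15.8 CPM in WT, Apc and Apc Eif3h.

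The other genes of folate metabolism included both higher and lower genes. Of 15 tested, 8 rose and 2 fell from WT to Apc, with a median of 0.42. The shares over all genes tested were 27.7% higher and 24.1% lower. Tyms, which uses methylene-tetrahydrofolate to make thymidylate, went from 20.7 ± 3.21 to 53.9 ± 5.75 CPM (log2 1.38, SE 0.13, edgeR adjusted p = 1.11e-05). Fpgs and Ggh, which add and remove the glutamate tail that holds folates in cells, rose by 1.27 (SE 0.17, edgeR adjusted p = 8.24e-05) and 2.50 (SE 0.34, edgeR adjusted p = 0.000118). The 2 lower were Aldh1l1, above, and the folate receptor Folr1, which was scarce (1.33 ± 0.394 to 0.321 ± 0.133 CPM, log2 -2.06, edgeR adjusted p = 0.000596). The 2 lower became 1 without any 1 of WT replicates 2, 3 or 4 or Apc replicates 2 or 4. In Apc Eif3h against Apc none rose and Aldh1l1 fell, where 4.27% of all genes tested were called higher and 2.78% lower.

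Genes that use or carry glycine and serine had calls in both directions. Of 11 tested, 3 rose (Amt, Gcsh and Sfxn2) and 5 fell from WT to Apc, with a median of -0.23. Among all genes tested, 27.7% were called higher and 24.1% lower in that contrast. Sfxn1, a mitochondrial serine carrier, went from 319 ± 17.4 to 182 ± 26.8 CPM (log2 -0.81, SE 0.13, edgeR adjusted p = 0.000284). Srr, which makes D-serine, gave -0.68 (SE 0.13, edgeR adjusted p = 0.000829). The others lower were Pipox (-0.88), Sardh (-0.58) and Dld (-0.23). The 5 lower became 3 without WT replicate 4 or any 1 of Apc replicates 2, 3 or 4, and 2 without Apc replicate 1. In Apc Eif3h against Apc, Sdsl, a serine dehydratase-like enzyme, fell by 0.72 (SE 0.15, edgeR adjusted p = 0.0173), a call lost without Apc Eif3h replicate 4. The list of methionine cycle, transsulfuration and linked genes, with Gss and Gclm of glutathione synthesis among them, gave 4 higher and 4 lower of 10. The methionine adenosyltransferase Mat2a rose by 1.05 (SE 0.10, edgeR adjusted p = 1.1e-05), and of the transsulfuration enzymes Cbs gave 2.57 (SE 0.34, edgeR adjusted p = 9.26e-05) while Cth gave -0.88 (SE 0.15, edgeR adjusted p = 0.000505). Ahcy (0.82) and Gss (0.46) were the others higher, and Gclm (-0.50), Ahcyl2 (-0.35) and Mat2b (-0.29) the others lower. The 4 lower became 2 without WT replicate 4 or Apc replicate 3. None of the 10 was called in Apc Eif3h against Apc.

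Around asparagine, 6 of 17 genes of aspartate, glutamine and proline metabolism rose and 5 fell from WT to Apc, with a median of 0.21. Calls over all genes tested stood at 27.7% higher and 24.1% lower. The glutaminase Gls2 went from 2.56 ± 0.920 to 16.1 ± 3.36 CPM (log2 2.64, SE 0.23, edgeR adjusted p = 1.02e-05), and Asrgl1, which hydrolyses asparagine, rose by 0.91 (SE 0.19, edgeR adjusted p = 0.00168). Got2, the mitochondrial aspartate aminotransferase, was higher (0.58), and the 5 lower were the alanine aminotransferases Gpt (-1.05) and Gpt2 (-0.62), Glud1 (-0.64), Aldh18a1 (-0.47) and Pycrl (-0.28). From Apc to Apc Eif3h the proline dehydrogenase Prodh fell by 1.02 (SE 0.14, edgeR adjusted p = 0.00266). The asparaginase Aspg fell by 0.85 (SE 0.16, edgeR adjusted p = 0.0105) and the glutamine synthetase Glul by 0.51 (SE 0.13, edgeR adjusted p = 0.0346). These 3 lower became 2 without any 1 library of the 2 groups other than Apc Eif3h replicate 3. Of all genes tested, 2.78% were called lower from Apc to Apc Eif3h. Of 5 tested transporters of serine, asparagine and glutamine, 4 rose from WT to Apc: Slc1a4 (2.27, SE 0.20), Slc38a1 (2.05, SE 0.20), Slc1a5 (1.125, SE 0.20) and Slc38a2 (0.35, SE 0.11). None was called in Apc Eif3h against Apc.

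**Figure D4:**
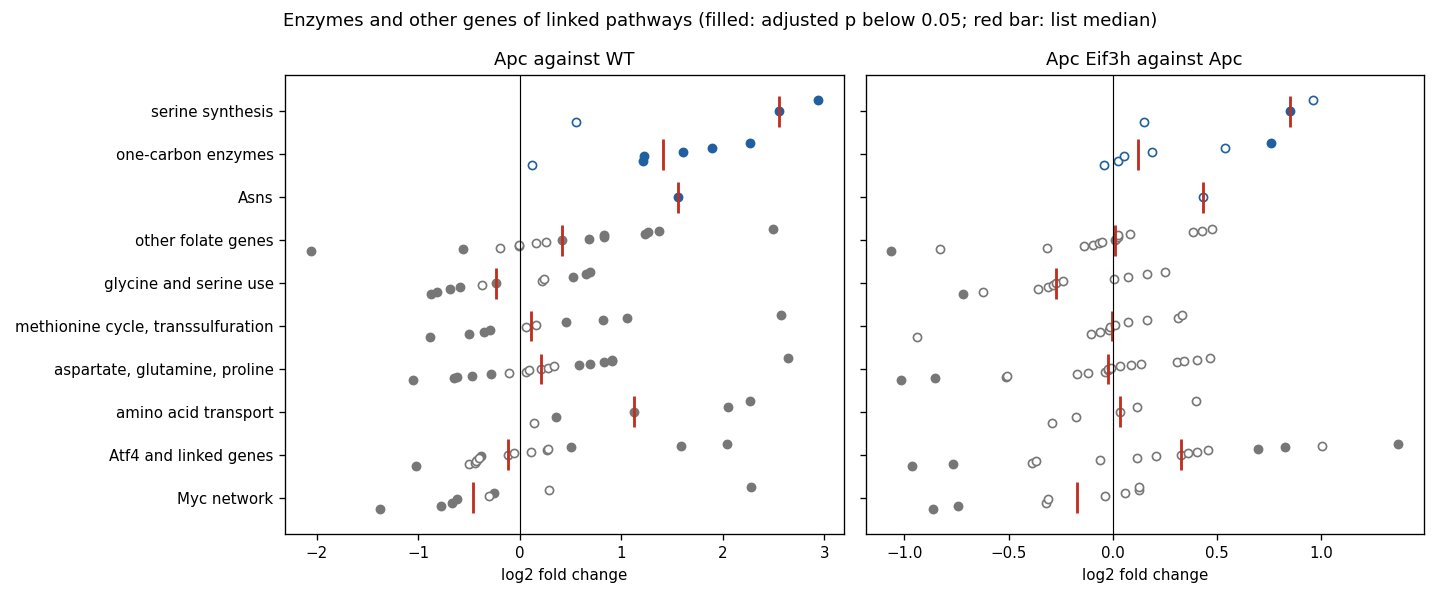
Log2 fold change (horizontal axes, with different ranges) of the enzyme genes (blue) and of genes of linked pathways (grey) by list, in Apc against WT and Apc Eif3h against Apc. Filled points passed at an adjusted p below 0.05 and red bars are list medians. In Apc against WT the other folate genes have a median of 0.42 and the genes of glycine and serine use -0.23.

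Myc rose from WT to Apc and Atf4 from Apc to Apc Eif3h. Myc, a growth-promoting transcription factor and a known Wnt target, averaged 19.4 ± 4.02 CPM over WT libraries, 94.2 ± 17.3 over Apc and 91.8 ± 22.0 over Apc Eif3h, a rise of 2.28 from WT to Apc (SE 0.21, edgeR adjusted p = 1.11e-05) and -0.04 from Apc to Apc Eif3h (SE 0.19, edgeR adjusted p = 0.933). Of the 8 genes on the list of Myc and its partners, Myc alone rose from WT to Apc and 5 fell, with a median of -0.46: Max, its dimer partner (-0.77), and the Max-binding repressors Mxd1 (-1.37), Mxi1 (-0.67), Mxd4 (-0.62) and Mnt (-0.25). From Apc to Apc Eif3h none rose, and Mycn (-0.86) and Mxd3 (-0.74) fell, both calls lost without any 1 of Apc replicates 2, 3 or 4 or Apc Eif3h replicates 1, 2 or 4. Atf4 was at 221 ± 23.5, 213 ± 14.8 and 379 ± 40.4 CPM, with -0.05 from WT to Apc (SE 0.10, edgeR adjusted p = 0.689) and a rise of 0.83 from Apc to Apc Eif3h (SE 0.10, edgeR adjusted p = 0.00172). Of 15 tested genes on the list of Atf4 and linked stress genes, 3 rose from WT to Apc (Gdf15, 2.04, Ddit4, 1.59, and Atf5, 0.51). Another 3 fell, the pseudokinase Trib3 (-1.02, SE 0.23, edgeR adjusted p = 0.00278), Cebpg (-0.42) and Ddit3 (-0.38). With a library left out, 2 to 3 of the list were higher and 2 to 4 lower. Over all genes tested, 27.7% were called higher and 24.1% lower in Apc against WT. From Apc to Apc Eif3h, Atf4, Atf5 (1.37, SE 0.16, edgeR adjusted p = 0.00167) and Ddit3 (0.70, SE 0.14, edgeR adjusted p = 0.0123) rose and Ddit4 (-0.77) and Vldlr (-0.97) fell. Of the 2 lower, 1 was called without Apc replicate 4 or any 1 of Apc Eif3h replicates 1, 2 or 4. Shares over all genes tested from Apc to Apc Eif3h were 4.27% higher and 2.78% lower. These are transcript levels, and Atf4 protein was not measured here.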

How the data were processed

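RNA of mouse small intestine was extracted with the RNeasy Micro kit and made into TruSeq RNA libraries, read from both ends for 36 cycles each (NextSeq 500), per the labels' protocols. The authors deposited whole-number counts per gene, not normalized, for 12 libraries. Per the submitters' processing notes HISAT2 2.1.0, featureCounts 1.6.4, FastQC 0.11.8 and Trim Galore 0.6.4 were used, and the build was GRCm38. The annotation release, strand setting and treatment of multi-mapped reads were not given in the sources used here.

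Samples were grouped by title. Symbols and coordinates came from GENCODE M21 (GRCm38), which held 55240 of 55421 identifiers; the other 181 carried 0.00226% of counts. The test was edgeR's quasi-likelihood test (edgeR 4.0.16, R 4.3.3: filterByExpr, TMM, glmQLFit, glmQLFTest, 1 mean per group over all 12 libraries), with Benjamini-Hochberg adjustment over 17394 genes. Each SE was taken as the size of the log2 fold change over the root of its F statistic. Log2 CPM used a prior count of 2. Ratios used counts plus 0.5 and exact permutation over samples (scipy 1.17.1). Counts of members ranged from 10 to 3459 per library. Chi-square per gene between replicates was 18.4 to 53.6, so no library was a repeat of another. Alternatives were DESeq2 1.42.0, other scalings, no filter, 2-group fits, a replicate block, labelled males and leaving out each library. The procedure was tested on simulated data. Named genes were the members, up to 3 called genes per list with the smallest p, short counts in full for pathway lists, and the 5 most alike; marker lists are given mainly by counts. Asrgl1 lay outside that rule and was chosen after its values were seen, Mthfd2l was named as a ratio partner and Apc as a check of labels. Promoter windows came from RefSeq (GRCm38.p6). The members and lists were chosen with earlier results of these data known.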

Additional observations from a re-analysis of the deposited data

Results flagged for a closer look

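Of the 30 groups of 4 libraries (10 genes in 3 groups), 1 held a library far from the others by its gap relative to the range of the group. Phgdh was at 21.16 CPM in Apc Eif3h replicate 3, where the other 3 libraries lay between 36.01 and 38.08 CPM so that the gap was 0.878 of the range and passed Dixon's test for 4 values. Chance gives about 1 such group in 20.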

How the results depend on the processing

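The 8 calls in Apc against WT and the 9 in Apc Eif3h against WT kept their direction and passed in all 15 alternatives for each gene. In Apc Eif3h against Apc the 2 members called higher became 1 with DESeq2 size factors, 1 with no filter, 0 with library totals, 0 with only the 2 groups compared and 0 in labelled males (659 genes called in all, against 1226), and 3 with DESeq2 or with the replicate block; leaving out a library gave 0 to 5 members and 406 to 1767 genes in all. With no filter 817 genes were called. Estimates near 0 changed sign: in Apc Eif3h against Apc, Shmt1 went to -0.0071 with library totals and -0.11 to 0.12 with a library left out, Mthfd1 to 0.045 in labelled males and -0.12 to 0.045 with a library left out, and Aldh1l2 to -0.060 to 0.32 with a library left out, and in Apc against WT Aldh1l2 went to -0.14 to 0.28. The causes were not tested. Library totals as the only scaling moved the median of all genes to 0.22 in Apc against WT (74.0% of calls higher, against 53.5%), 0.17 in Apc Eif3h against WT (67.5% against 51.5%) and -0.03 in Apc Eif3h against Apc (49.8% against 60.6%).

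The replicate numbers are shared between groups but nothing says that they pair animals. Deviations of same-numbered libraries correlated above 0.1 in 2 of 4 pairs for Apc Eif3h against Apc, 0 of 4 for Apc against WT and 1 of 4 for Apc Eif3h against WT, and 2, 0 and 1 libraries correlated best with their own number. With the replicate block 9 members were higher in Apc against WT and 9 in Apc Eif3h against WT, and 993 genes were called in Apc Eif3h against Apc. The differences in isozyme ratio moved by less than the spread between replicates in each alternative run; with 3 against 4 libraries the smallest exact p is 0.0571. Aldh1l2 had the fewest counts of the members, 10 to 31 per library, and whether depth limited its call was not tested.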
